A study of Mus musculus with 24 samples.

Results

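Immediate early genes were examined in mouse liver through 10 members: the transcription factor genes Fos, Fosb, Jun, Junb, Atf3 and Egr1, the nuclear factor gene Ier2, and the feedback genes Zfp36, Dusp1 and Btg2. They were taken as the rows of the expression table whose Entrez identifiers map to these symbols. All 10 were among its 18171 genes, and 9 passed the filter on low values, which asked for 6 or more libraries with an FPKM of 1 or more. FPKM counts fragments per kilobase of transcript, scaled to the mapped fragments of the library. RNA was sequenced from livers of C57BL/6 mice in 24 libraries, 12 of the genotype that overexpressed L2 delta13 (written L2d13) and 12 of wild type (WT). The sample names carry a digit 2 or 4 with no stated meaning, and the libraries are called set 2 and set 4 after it. This gave 4 groups of 6 libraries, L2d13 set 2 and WT set 2 with replicate numbers 1 to 6, and L2d13 set 4 and WT set 4 with numbers 7 to 12. All groups share the strain and the tissue, and the labels name no treatment. The age of the mice, the promoter that drives the transgene and the cells that express it are not given in the sources used here. No label says whether each library came from its own animal, so p-values measure the spread between libraries, which may be technical.

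Immediate early genes are transcribed soon after a cell is stimulated, by factors that are already present, such as serum response factor (SRF) with its ternary complex partners and the cyclic AMP response element binding protein (CREB). Their mRNAs are short-lived, and several of their products end the response that induced them. In liver they are known for their induction after partial hepatectomy, by growth factors and hormones, and in acute stress.

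The stretches before the RefSeq start sites (GRCm38.p6) are shown for 4 members whose levels differ in pattern below: Jun and Dusp1, which fell over both sets, and Fos and Btg2, which were not called there. Of the 10 members, 8 matched the promoter table, while Egr1 and Ier2 did not. Each window held 250 bases, and bases that a GENCODE exon of the same strand covers are not printed, which leaves 203 for Dusp1. Capitals mark the cyclic AMP response element TGACGTCA (CRE), its first 5 bases TGACG (which the full CRE contains) and the TATA motif TATAAA, on either strand. The printed stretches lie at chr12:85473640-85473889 (plus strand) for Fos, chr4:95052223-95052472 (minus) for Jun, chr17:26508520-26508722 (minus) for Dusp1 and chr1:134079156-134079405 (minus) for Btg2.
Fos: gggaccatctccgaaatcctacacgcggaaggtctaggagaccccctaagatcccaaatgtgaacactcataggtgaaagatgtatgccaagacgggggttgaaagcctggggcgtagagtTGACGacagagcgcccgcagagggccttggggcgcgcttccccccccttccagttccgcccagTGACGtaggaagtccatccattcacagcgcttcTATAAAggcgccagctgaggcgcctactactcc
Jun: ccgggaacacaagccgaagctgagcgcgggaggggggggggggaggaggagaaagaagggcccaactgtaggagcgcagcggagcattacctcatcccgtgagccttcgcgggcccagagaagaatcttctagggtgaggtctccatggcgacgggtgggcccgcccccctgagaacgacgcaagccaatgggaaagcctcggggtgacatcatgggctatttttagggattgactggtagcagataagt
Dusp1: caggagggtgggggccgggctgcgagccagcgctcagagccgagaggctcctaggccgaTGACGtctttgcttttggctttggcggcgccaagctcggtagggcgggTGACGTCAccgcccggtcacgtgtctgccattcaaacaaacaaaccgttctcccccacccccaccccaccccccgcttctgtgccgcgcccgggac
Btg2: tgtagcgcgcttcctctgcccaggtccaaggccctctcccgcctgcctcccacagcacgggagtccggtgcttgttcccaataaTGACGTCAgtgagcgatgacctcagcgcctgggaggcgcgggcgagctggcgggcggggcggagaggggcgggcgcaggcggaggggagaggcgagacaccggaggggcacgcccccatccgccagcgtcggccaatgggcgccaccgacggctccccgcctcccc

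The full CRE was present in the windows of Dusp1, 143 to 136 bases before the start, and of Btg2, 166 to 159 bases before it. It was found in 1.55% of the 32851 RefSeq promoter windows of the same length. The short site TGACG was in 6 of the 8 windows (Fos, Fosb, Junb, Dusp1, Atf3 and Btg2) against 17.8% of all windows. Fos held it 129 and 66 bases before the start, and held TATAAA at 33 bases, a motif of 12.4% of windows. The Jun window held none of the motifs in capitals. The CArG box, the motif that SRF binds, was in the Zfp36 window alone among the 8, as CCATAAAAGG at 58 to 49 bases before the start, against 1.47% of windows; this window lies wholly inside an exon of a longer GENCODE transcript and is not printed. The AP-1 motif TGANTCA was in none of the 8 and in 6.75% of all windows. GGGCGG was in 7 of the 8 against 32.7%, and CCAAT in 3 (Jun, Junb and Btg2) against 33.8%. The 8 windows held 58.4% (Fos) to 73.2% (Btg2) of G and C, above the median of 52.4% for all windows. The part of this makeup in the motif shares was not tested. Both strands were searched, and a match describes letters, not a bound site. The search took exact matches within 250 bases before the start. A window without a match thus does not show that the gene lacks a site, for SRF or another factor.

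Across the 24 libraries, summed FPKM ran from 550260 to 722980 and 9463 to 11371 genes reached an FPKM of 1. Correlations between libraries ran from 0.909 to 0.992. L2 delta13 is known as a variant of the lysyl oxidase LOXL2, although the labels do not spell it out, so Loxl2 served as a check on the genotype. In WT liver Loxl2 was 0.680 ± 0.254 FPKM (SD, n = 12) and in L2d13 liver 1.501 ± 0.384, and the predicted gene Gm21451 was 0.240 ± 0.339 and 172 ± 69.3 in the same order. Both lay above the WT mean of their set in 12 of 12 L2d13 libraries (log2 differences of 0.57 and 7.01). Hepatocyte markers were abundant in every group, with Alb, Apoa1 and 5 others summing to between 30796 and 59845 FPKM. L2d13 set 2 replicate 3 stood apart, with 108.9 FPKM of exocrine pancreas markers against at most 8.51 in the other groups. Without it the same 5 members were called over both sets and the same 5 within set 4.

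The question was whether the response genes differ between L2d13 and WT liver. With both sets in 1 model, 5 members fell in L2d13 (Zfp36, Dusp1, Ier2, Jun and Atf3) and none rose, of 9 tested. Over all 10532 genes tested, 4.86% fell and 25.9% rose. The 9 members had a median log2 difference of -0.53, and the median of all genes was 0.12. Differences are L2d13 minus WT on the scale of log2(FPKM + 1), a gene is called at an adjusted p under 0.05 in limma, and rose and fell are used for called genes alone. This set of 9 was not free of selection. The members, like the gene lists below, were chosen with earlier results of these data known, so their counts beside all genes are a description. Fos and Atf3 also passed the filter mainly through WT. Fos reached an FPKM of 1 in 6 WT and 1 L2d13 libraries, and Atf3 in 5 WT and 2 L2d13 libraries. Of the 7 members with an FPKM of at least 1 in all 24 libraries, 4 fell. Of all 8775 genes that met this stricter filter, 442 fell and 2341 rose. In whole liver, fewer cells of a type and less RNA per cell cannot be told apart.

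**Figure D1:**
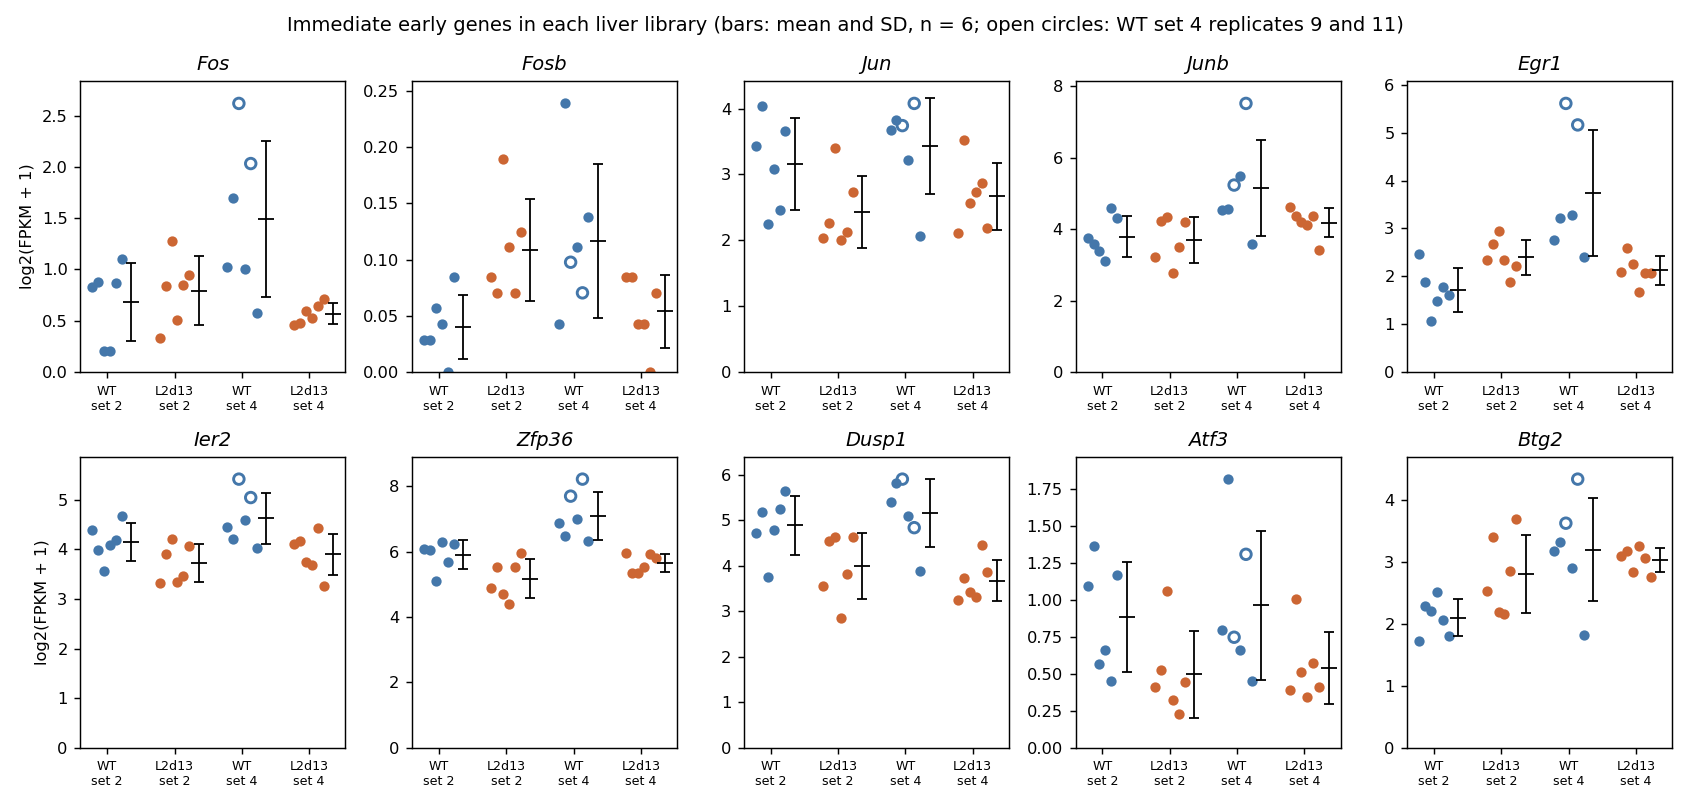
Level of each of the 10 genes in every library as log2(FPKM + 1), WT in blue and L2d13 in orange, with the mean and SD of 6 libraries beside each group and open circles for WT set 4 replicates 9 and 11. WT set 4 has the highest mean FPKM of the 4 groups for all 10 genes, and its Zfp36 values alone clear every other group.

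Zfp36 encodes tristetraprolin, which binds AU-rich elements in mRNAs, those of cytokines and of immediate early genes among them, and recruits deadenylases. It was the most abundant member in FPKM, a scale per length. In set 2 it ranged from 19.97 to 61.23 FPKM in L2d13 (median 36.98) and from 33.25 to 77.67 in WT (median 66.2). In set 4 it ranged from 39.94 to 61.84 FPKM in L2d13 (median 50.3) and from 78.96 to 298.0 in WT (median 122). The groups overlapped in set 2 and not in set 4. It fell by 1.09 ± 0.21 on the log2 scale (SE; adjusted p = 0.000506, limma), with 11 of 12 L2d13 libraries below the WT mean of their set. Zfp36 lies on the minus strand at chr7:28376784-28380253 (GRCm38, GENCODE M21) and shares exon sequence with the antisense gene Gm44710. The use of strand in the counting is not given in the sources used here, so reads of the pair cannot be told apart.

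Dusp1 encodes a dual-specificity phosphatase that inactivates the MAP kinases p38, JNK and ERK, and it is known as a target of glucocorticoids. Its level ranged from 6.16 to 23.8 FPKM in L2d13 set 2 (median 17.6) and from 12.55 to 48.93 in WT set 2 (median 31.0). In set 4 the range was 8.44 to 20.8 FPKM in L2d13 (median 10.99) and 13.74 to 58.8 in WT (median 37.3). Every L2d13 library lay below the WT mean of its set, 12 of 12, although the ranges overlapped in both sets. Dusp1 fell by 1.19 ± 0.25 (adjusted p = 0.000926), the largest difference among the members over both sets. Its annotation at chr17:26505590-26562128 (minus strand) overlaps exons of Ergic1 on the opposite strand.

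Btg2, an antiproliferative gene whose product promotes deadenylation through the CCR4-NOT complex and which p53 induces, was the member that did not share this direction. It ranged from 3.48 to 11.98 FPKM in L2d13 set 2 (median 5.50) against 2.30 to 4.71 in WT set 2 (median 3.40). In set 4 it ranged from 5.77 to 8.53 FPKM in L2d13 (median 7.47) and from 2.55 to 19.27 in WT (median 8.52). L2d13 was thus at the higher median in set 2 and inside the WT range in set 4. The difference over both sets was 0.27 ± 0.22 (adjusted p = 0.379), with 7 L2d13 libraries above and 5 below the WT mean of their set.

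Among the subunits of the AP-1 transcription factor, a dimer of FOS, JUN and ATF family proteins, Jun fell and Fos and Junb were not called. Jun ranged from 3 to 9.53 FPKM in L2d13 set 2 (median 3.59) and from 3.75 to 15.46 in WT set 2 (median 8.65). In set 4 it ranged from 3.34 to 10.47 FPKM in L2d13 (median 5.29) and from 3.19 to 15.9 in WT (median 12.1). The WT medians were the higher in both sets, with wide overlap. Jun fell by 0.75 ± 0.23 (adjusted p = 0.0165), with 10 of 12 L2d13 libraries below the WT mean. The Jun gene at chr4:95049034-95052222 (minus strand, 1 exon) overlaps the antisense gene Junos.

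Junb, which forms AP-1 dimers with weaker transforming activity than JUN, had a median of 13.8 FPKM in L2d13 set 2 (5.82 to 19.34) and 11.7 in WT set 2 (7.66 to 23.16). In set 4 the median was 18.5 FPKM in L2d13 (9.75 to 23.64) and 29.7 in WT (11.06 to 182.1). The groups overlapped in both sets, and the highest value came from 1 WT library. The difference over both sets was -0.53 ± 0.31 (adjusted p = 0.206). Junb overlaps exons of Prdx2, an abundant peroxiredoxin gene on the opposite strand, so its level is uncertain.

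Fos, the best known immediate early gene, was low, with medians of 0.795 FPKM in L2d13 set 2 (0.26 to 1.43), 0.805 in WT set 2 (0.15 to 1.14) and 0.475 in L2d13 set 4 (0.37 to 0.64). WT set 4 had a median of 1.63 FPKM (0.49 to 5.14). The set 2 groups lay on each other, while 5 of 6 WT set 4 libraries and none of the L2d13 set 4 libraries reached 1. Fos differed by -0.41 ± 0.20 over both sets (adjusted p = 0.125). Fosb, which forms the same kind of dimer, stayed between 0 and 0.18 FPKM and had no test across genes. By an exact permutation test of the 2 genotypes within a set, two-sided, its difference was 0.07 in set 2 (p = 0.00866) and -0.06 in set 4 (p = 0.0628), and over both sets the p was 0.904. The means behind these values were 0.0783 and 0.0283 FPKM in set 2, and 0.0383 and 0.0850 in set 4, for L2d13 and WT in turn. The permutation p-values were not adjusted, and the counting error at such levels is unknown. The highest set 2 value of Fosb, 0.14 FPKM, came from L2d13 set 2 replicate 3, the library with the pancreas markers.

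Atf3, a stress-induced repressor of the ATF and CREB family, was as low as Fos. Its median was 0.345 FPKM in L2d13 set 2 (0.17 to 1.09) and 0.860 in WT set 2 (0.37 to 1.58), 0.380 in L2d13 set 4 (0.27 to 1.01) and 0.710 in WT set 4 (0.37 to 2.53). WT medians were the higher in both sets and all ranges overlapped. Atf3 fell by 0.41 ± 0.14 (adjusted p = 0.0294), with 10 of 12 L2d13 libraries below the WT mean. This call rests on single libraries: the adjusted p was 0.0518 without WT set 2 replicate 2 and 0.0562 without WT set 4 replicate 11.

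Egr1, a zinc finger transcription factor gene whose product is held back by the co-repressors NAB1 and NAB2, had opposite orders in the sets. In set 2 it ranged from 2.71 to 6.71 FPKM in L2d13 (median 4.05) and from 1.08 to 4.50 in WT (median 2.24). In set 4 it ranged from 2.17 to 5 FPKM in L2d13 (median 3.24) and from 4.33 to 47.96 in WT (median 8.52). L2d13 was the higher in set 2 and the lower in set 4, with some overlap in each. Over both sets the difference was -0.47 ± 0.36 (adjusted p = 0.337), with 6 L2d13 libraries on either side of the WT mean.

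Ier2, a short nuclear protein gene of 1 exon at chr8:84661331-84662852 (minus strand), ranged from 9.03 to 17.49 FPKM in L2d13 set 2 (median 12.005) and from 10.79 to 24.59 in WT set 2 (median 16.6). In set 4 it ranged from 8.62 to 20.68 FPKM in L2d13 (median 14.3) and from 15.3 to 41.78 in WT (median 22.1). WT medians were the higher and the groups overlapped in both sets. Ier2 fell by 0.58 ± 0.16 (adjusted p = 0.0099), with 11 of 12 L2d13 libraries below the WT mean.

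**Figure D2:**
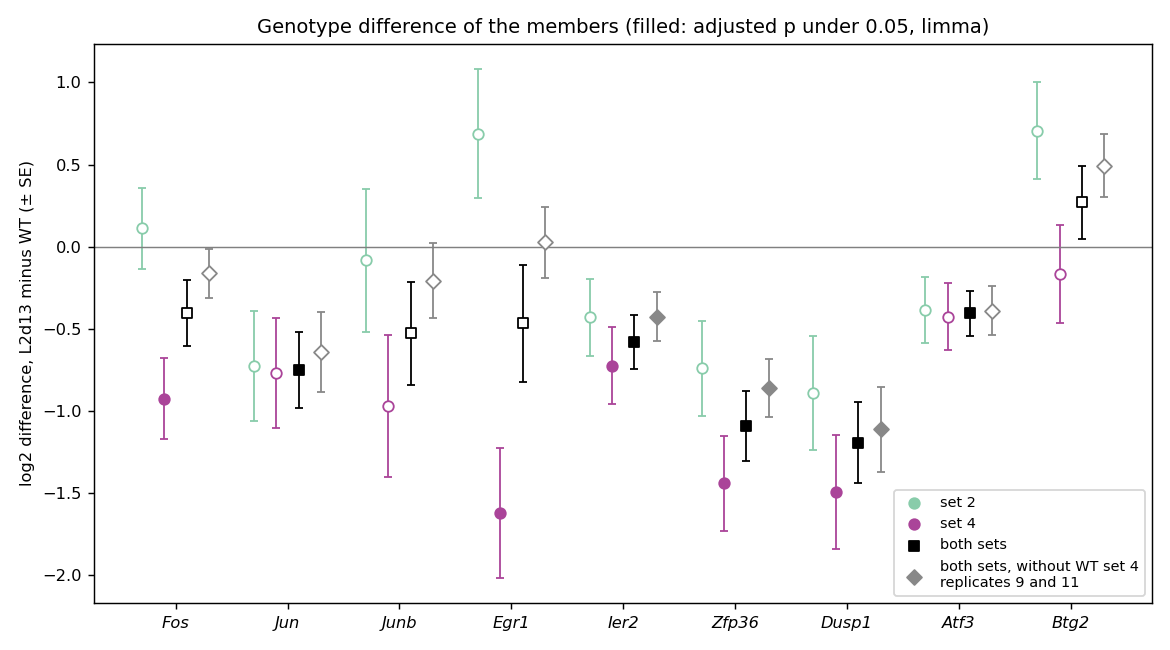
Log2 difference, L2d13 minus WT, with its SE for the 9 tested genes within set 2, within set 4, over both sets and over both sets without WT set 4 replicates 9 and 11; filled symbols have an adjusted p under 0.05. Zfp36, Dusp1 and Ier2 are filled with and without the pair of libraries, and Egr1 runs from 0.69 in set 2 to -1.62 in set 4.

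The same genotypes were then compared within each set. Within set 4, 5 members fell in L2d13 (Zfp36, Dusp1, Egr1, Fos and Ier2) and none rose, where 2.97% of all genes fell and 10.3% rose. All 9 estimates were negative, with a median of -0.92 against 0.08 for all genes. Zfp36 fell by 1.44 ± 0.29 (adjusted p = 0.00241), Dusp1 by 1.49 ± 0.35 (adjusted p = 0.00686) and Egr1 by 1.62 ± 0.39 (adjusted p = 0.00881). Fos fell by 0.92 ± 0.25 (adjusted p = 0.0164) and Ier2 by 0.72 ± 0.23 (adjusted p = 0.0409). Fos had passed the filter mainly through WT set 4, where 5 of 6 libraries reached an FPKM of 1 and none of L2d13 set 4 did. With an FPKM of at least 1 asked in all 24 libraries, 4 of 7 members fell within set 4, and Fos was not tested. Of the 8775 genes tested then, 263 fell and 921 rose. Each SE pools the spread of all 4 groups, which was unequal. The SD of Egr1 on the log2 scale was 1.32 in WT set 4 and 0.30 in L2d13 set 4, and that of Fos 0.76 and 0.10. The p-values of Egr1 and Fos within set 4 may thus be too small. Zfp36 was the 1 member whose L2d13 and WT ranges did not overlap in set 4, a property of 1.70% of genes in the lower direction. The call of Ier2 was lost in 10 of 33 other settings (adjusted p up to 0.350), and without WT set 4 replicate 11 alone 3 members were called (Zfp36, Dusp1 and Egr1). Without the 7 libraries in which a fragment was worth most FPKM, which leaves 2 in WT set 4, Dusp1 and Fos were called and Zfp36 had an adjusted p of 0.0752.

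Within set 2 no member was called by limma, where 2.13% of all genes fell and 13.0% rose. At an unadjusted p under 0.05 there were 4 members (Zfp36, Dusp1 and Jun lower, Btg2 higher) and 3191 genes in all. Dusp1 differed by -0.89 ± 0.35 (adjusted p = 0.0843), Zfp36 by -0.74 ± 0.29 (adjusted p = 0.0857), Jun by -0.73 ± 0.33 (adjusted p = 0.141) and Btg2 by 0.71 ± 0.30 (adjusted p = 0.108). The median of the 9 was -0.39 and that of all genes 0.16. No member had L2d13 values wholly under those of WT, as 0.560% of genes did. Without WT set 2 replicate 3, Zfp36 and Dusp1 were called, and without L2d13 set 2 replicate 6, Zfp36.

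Whether the genotype effect differs between the sets was tested directly. No member was called by limma, with 0.123% of genes called lower and 0.0285% higher, and 3 members and 747 genes had an unadjusted p under 0.05. Of these 3, Egr1 had a difference of effects of -2.31 ± 0.56 (adjusted p = 0.128), from 0.69 in set 2 to -1.62 in set 4, Fos of -1.04 ± 0.35 (adjusted p = 0.398) and Btg2 of -0.87 ± 0.42 (adjusted p = 0.696). Junb, with the wider error, was at -0.89 ± 0.61 (adjusted p = 0.818). All 9 estimates were negative (median -0.70, all genes -0.08). Members called within set 4 and not within set 2, such as Egr1 and Fos, were therefore not shown to differ between the sets. Without WT set 4 replicate 12, Egr1 was called. Without WT set 4 replicates 9 and 11, a setting chosen after the values were seen, the median was -0.28 and 2 of the 9 estimates were positive, Jun at 0.20 and Ier2 at 0.01. Egr1 was then at -1.48 (adjusted p = 0.091), Fos at -0.62 (adjusted p = 0.558) and Btg2 at -0.48 (adjusted p = 0.797), with no member called and 0.0380% of genes called lower.

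The sets were also compared within each genotype, and these comparisons share libraries with those above. In WT, Egr1 rose from set 2 to set 4 by 2.03 ± 0.39 (adjusted p = 0.0229), the 1 member called, where 0.0855% of genes rose and 0.104% fell. The SE pools all 4 groups, while the SD of Egr1 was 1.32 in WT set 4 and 0.47 in WT set 2. Its p may thus be too small. All 9 estimates were positive, with a median of 0.81 against -0.08. Zfp36 differed by 1.19 ± 0.29 (adjusted p = 0.116) with no overlap between the sets, which 0.114% of genes had in that direction, Btg2 by 1.10 ± 0.30 (adjusted p = 0.175) and Junb by 1.36 ± 0.43 (adjusted p = 0.305). Egr1 lost its call without any 1 of WT set 2 replicates 2 to 6 or WT set 4 replicate 11 (adjusted p from 0.0525 to 0.0745). In L2d13 no member was called and none had an unadjusted p under 0.05, as 2460 genes did. There 5.51% of genes fell and 0.551% rose from set 2 to set 4, and the members' estimates ran from -0.33 to 0.49.

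WT set 4 had the highest mean for each of the 10 members, and 2 of its libraries held most of the highest values. Replicates 9 and 11 were each the highest of 24 for 4 members and among the top 3 for 7 and 8 members. Egr1 was 47.96 and 34.86 FPKM in these libraries and 1.08 to 8.73 in the other 22. Zfp36 was 207.4 and 298.0 against 19.97 to 126.5, Ier2 was 41.78 and 32.06 against 8.62 to 24.59, and Fos was 5.14 and 3.09 against 0.15 to 2.23. These 4 genes lay above all other libraries in both. Junb reached 182.1 FPKM in replicate 11 alone, Atf3 reached its highest value, 2.53, in replicate 8 instead, and replicate 12 had a median rank of 15.5 of 24.

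**Figure D3:**
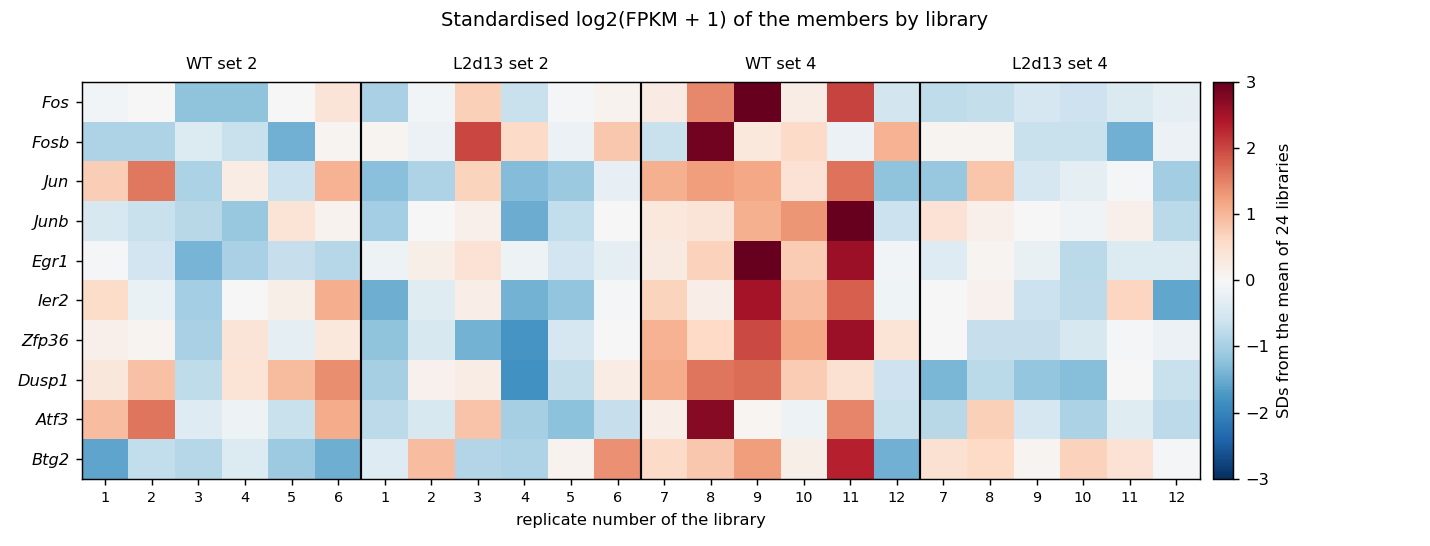
Standardised level of each gene in each library, in SDs of log2(FPKM + 1) from its mean over 24 libraries, with columns by group and replicate number and colours capped at 3 SDs. The darkest red lies in WT set 4 replicates 8, 9 and 11, where replicate 9 is the highest of 24 for 4 genes and replicate 11 for 4 others.

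Both libraries also differed in other measures, whose part in the result was not tested. The 10 Kupffer cell markers (resident liver macrophages, C1qa and C1qb the most abundant) summed to 60.91 and 48.19 FPKM, the lowest of the 24. Those sums ran from 164 to 376 in L2d13 set 2, 75.98 to 272 in L2d13 set 4, 133 to 259 in WT set 2 and 48.19 to 176 in WT set 4. The 8 sinusoidal endothelium markers (Clec4g and Fcgr2b the most abundant) summed to 29.29 and 28.46, again the lowest, with 116 to 240, 45.27 to 105, 43.91 to 131 and 28.46 to 110 in the same groups. No marker of either list was at 0 in all libraries. Over both sets 3 of 10 Kupffer and 4 of 8 endothelial markers rose in L2d13, none fell, and 1 of 9 stellate cell markers rose, beside the 25.9% of all genes that rose. With median-of-ratios scaling those counts were 0, 2 and 1, and without replicates 9 and 11 they were again 0, 2 and 1. In these settings 11.5% and 18.0% of all genes rose. Of the other lists, 1 of 7 hepatocyte markers (Ttr) and 1 of 5 erythroid markers (Alas2) fell. Few markers of the remaining types were tested: cholangiocytes 3 of 6, T and NK cells 2 of 6, B cells 1 of 4. Neutrophils and monocytes had 4 of 8 tested and exocrine pancreas 1 of 6. None of these was called. Erythroid sums were 1702 and 1721 in the pair, ranks 3 and 2 of 24, beside a WT set 4 median of 1617. Summed FPKM was 704021 and 722980, the highest of the 24. The FPKM that 1 fragment is worth, relative to the median library, was 1.10 and 1.04. That measure was not particular to the pair, with 1.25 in WT set 2 replicate 6 and 1.04 in WT set 4 replicate 10.

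Without this pair of libraries, a setting chosen after the values were seen, 3 members fell over both sets: Zfp36 (-0.86, adjusted p = 0.0013), Dusp1 (-1.11, adjusted p = 0.00385) and Ier2 (-0.43, adjusted p = 0.043). Over all genes 4.05% fell and 18.0% rose in this setting, and the median of the 9 members was -0.39. Jun was then at -0.64 (adjusted p = 0.0629) and Atf3 at -0.39 (adjusted p = 0.064), while Egr1 turned to 0.03. Within set 4, Zfp36 (-1.01, adjusted p = 0.0304) and Dusp1 (-1.39, adjusted p = 0.044) were called, where 1.69% of genes fell and 2.85% rose. The median of the 9 members there was -0.51, and Btg2 changed sign, to 0.23 (adjusted p = 0.739). Egr1 within set 4 stood at -0.80 (adjusted p = 0.0563) and Fos at -0.51 (adjusted p = 0.178). Egr1 was still higher in WT set 4 than in WT set 2, by 1.21 (adjusted p = 0.0337), where 0.0760% of genes rose and 0.0665% fell, and the median of the 9 in that comparison was 0.39. The fall of Zfp36 and Dusp1 was thus called with and without the pair.

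Another scaling of the libraries changed the balance over all genes and not the members called over both sets. With median-of-ratios scaling, 11.1% of genes fell and 11.5% rose over both sets, and the median of all genes went from 0.12 to 2.44e-05. The same 5 members fell, and their median of 9 was -0.66. With quantile normalization the members' median was -0.62, and again the same 5 fell. Within set 2, where no member was called, Dusp1 fell with either scaling.

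The members varied together from library to library. After subtraction of group means from log2(FPKM + 1), the Pearson r of the 36 pairs of the 9 tested members had a median of 0.53 over 24 libraries and ran from 0.07 to 0.80, positive in all 36. By permutation within groups with Benjamini-Hochberg adjustment over the 36 pairs, 14 had an adjusted p under 0.05 for Pearson's r and 13 for Spearman's rho. When each pair was taken without the 2 libraries farthest from the median of its first gene, the median r was 0.40 and 35 of 36 were positive, with Zfp36 and Atf3 at -0.12. Jun and Atf3 had the closest relation, with r = 0.80 and rho = 0.79 (adjusted permutation p = 0.00036 and 0.00072), and r = 0.75 without the 2 libraries farthest from the median of Jun. Fos and Egr1 had r = 0.80 and rho = 0.60 (adjusted permutation p = 0.0059 and 0.0453), and r = 0.61 without the 2 farthest.

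Zfp36 and Btg2, both linked to mRNA decay, had r = 0.72 and rho = 0.57 (adjusted permutation p = 0.0105 and 0.0453). Their genotype differences over both sets had opposite signs, but that of Btg2 was not called, and within set 4 both estimates were negative. Zfp36 and Atf3 were the least related pair, with r = 0.07 and rho = 0.08 (adjusted permutation p = 0.808 and 0.749). Without WT set 4 replicates 9 and 11 the median r was 0.48, with 34 of 36 positive. Libraries share their depth and makeup across genes, and the part of these in the relation was not tested.

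**Figure D4:**
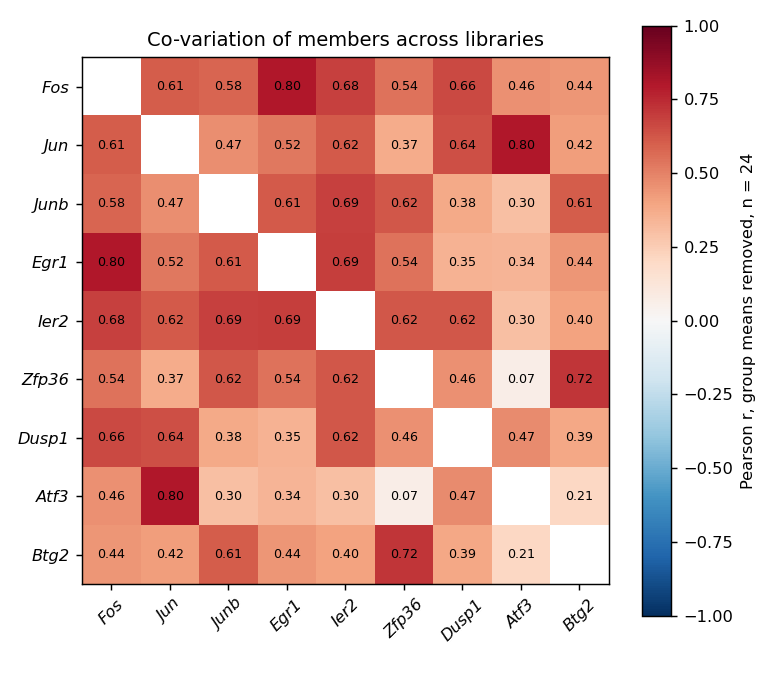
Pearson r between each pair of the 9 tested genes over 24 libraries, after group means were subtracted from log2(FPKM + 1). All 36 values are positive; Jun with Atf3 and Fos with Egr1 reach 0.80, and Zfp36 with Atf3 is at 0.07.

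The genes most like the members over the 24 libraries, by Pearson r to the mean standardised level of the 9 after removal of group means, are given as a description. Csrnp1, a nuclear protein gene of the primary response, had r = 0.85, and Nfkbiz, an inhibitor of NF-kappaB family gene, had r = 0.78. The p53 and stress target Gdf15 and the DNA repair gene Alkbh2 both had r = 0.77, as did Srrm4. Ptp4a1 and Pim3, a phosphatase and a kinase gene, had r = 0.76, and the adaptor gene Myd88 had r = 0.75. Without WT set 4 replicates 9 and 11 these values ran from 0.65 for Srrm4 and Nfkbiz to 0.84 for Gdf15. Of the 8, Gdf15 (-1.69, adjusted p = 0.000427), Ptp4a1 (-0.77, adjusted p = 0.000521) and Pim3 (-1.17, adjusted p = 0.00057) fell in L2d13.

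Other genes of the response were read from lists, over both sets and beside the same background of 4.86% lower and 25.9% higher (median 0.12). Of 33 other primary response genes 29 were tested, of which 6 fell and 2 rose (median -0.26). Cebpb, a transcription factor of the acute phase response, averaged 86.4 ± 34.8 FPKM in WT (SD, n = 12) against 37.3 ± 11.8 in L2d13 and fell by 1.13 ± 0.21 (adjusted p = 0.000251). The clock gene Per1 fell by 1.15 (adjusted p = 0.000552) and the NF-kappaB inhibitor Nfkbia by 0.69 (adjusted p = 0.0131), while the kinase gene Plk2 rose by 0.55 (adjusted p = 0.00216). The count moved with the setting: 14 fell and 1 rose with median-of-ratios scaling or quantile normalization, and 4 fell and 4 rose without WT set 4 replicates 9 and 11. The background moved too. Over all genes 11.1% fell and 11.5% rose with median-of-ratios scaling, and 1079 and 1310 of 10532 with quantile normalization. Without the 2 libraries 4.05% fell and 18.0% rose. Recounts of the lists below in these settings stand beside the same shares.

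Other AP-1 subunits and partners, 9 of 12 tested, were split, with 1 lower and 2 higher (median 0.07). Jund, the AP-1 subunit with the most constant expression in most tissues, fell by 0.47 (adjusted p = 0.0221), and Mafk rose by 0.39 (adjusted p = 0.00535). Atf2 rose by 0.23 (adjusted p = 0.0275) and lost its call with median-of-ratios scaling (adjusted p = 0.264), under which 3 of the list fell and 1 rose. Of the EGR family and its co-repressors 2 of 5 were tested, and Nab2, which represses EGR1, was 7.09 ± 2.23 FPKM in L2d13 and 4.25 ± 1.74 in WT and rose by 0.66 ± 0.16 (adjusted p = 0.00264).

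Of 9 other dual-specificity phosphatases 4 were tested, 1 fell and 1 rose (median 0.03). Dusp6, an ERK phosphatase, was 6.59 ± 2.001 FPKM in L2d13 and 15.6 ± 8.30 in WT and fell by 1.04 ± 0.19 (adjusted p = 0.000303), and Dusp10 rose by 0.28 (adjusted p = 0.00872). Among 15 mRNA decay partners of ZFP36 and BTG2, 1 fell and 2 rose (median 0.09). The antiproliferative adaptor Tob2 fell by 0.77 (adjusted p = 0.000521). The poly(A) binding protein gene Pabpc1 (0.27) and the CCR4-NOT scaffold gene Cnot1 (0.50) rose, and neither was called with median-of-ratios scaling (adjusted p = 0.316 and 0.138), under which 3 fell and none rose. Without WT set 4 replicates 9 and 11, 1 fell and none rose.

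Upstream of the members, 2 of 10 SRF, ternary complex and CREB factors fell and none rose (median 0.02): Crem (-0.50, adjusted p = 0.0188), whose short products repress CREB targets, and the SRF coactivator gene Mrtfb (-0.39, adjusted p = 0.0191). Of 17 genes of the MAP kinase cascade and its receptors 5 rose and none fell (median 0.15), beside the 25.9% of all genes that rose. With median-of-ratios scaling 2 rose, where 11.5% of all genes did. Without WT set 4 replicates 9 and 11, 3 rose, where 18.0% of all genes did, and 1 of the SRF, ternary complex and CREB factors fell. Each count of this cascade was near the share of all genes. The p38 kinase gene Mapk14 rose by 0.51 (adjusted p = 0.000172) and the hepatocyte growth factor receptor gene Met by 0.60 (adjusted p = 0.000939). Mapk8 (0.24, adjusted p = 0.00307) and Braf (0.22, adjusted p = 0.0296) also rose and were not called with that scaling.

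Lists of other regulators that share targets with the members were read in the same way. Of 14 glucocorticoid targets 5 fell and none rose (median -0.48), with 7 fallen under median-of-ratios scaling, where 11.1% of all genes fell. Tsc22d3, which encodes the glucocorticoid-induced leucine zipper, was 37.7 ± 17.1 FPKM in L2d13 and 94.0 ± 34.996 in WT and fell by 1.35 ± 0.26 (adjusted p = 0.000518). Zbtb16 fell by 0.94 (adjusted p = 0.00539) and the cell cycle inhibitor Cdkn1a by 1.13 (adjusted p = 0.00555), and Per1 is also in this list. Of 10 p53 targets 7 were tested, 3 fell (Trp53inp1 by 1.16, Gdf15 by 1.69, and Cdkn1a) and 2 rose, among them Sesn1 by 0.49 (adjusted p = 0.00108). The p53 target Btg2, a member, was not called.

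Of 8 genes of the ATF4 pathway, which also induces Atf3, 7 were tested, none fell and 2 rose (median -0.05): Trib3 by 1.06 ± 0.15 (adjusted p = 2.39e-05) and Atf5 by 0.82 ± 0.12 (adjusted p = 4.12e-05). Of 9 heat shock genes 2 fell and 3 rose (median 0.36). Within set 2 none fell and 3 rose, where 2.13% of all genes fell and 13.0% rose. Within set 4, 3 fell and none rose, where 2.97% of all genes fell and 10.3% rose. None was called for a difference of the genotype effect between the sets. Over both sets the inducible Hspa1a fell by 0.97 (adjusted p = 0.00254), while the mitochondrial chaperonin genes Hspe1 and Hspd1 rose by 0.51 and 0.65 (adjusted p = 0.00143 and 0.00331). Hspa8 rose by 0.36 (adjusted p = 0.0169) and was not called with median-of-ratios scaling.

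**Figure D5:**
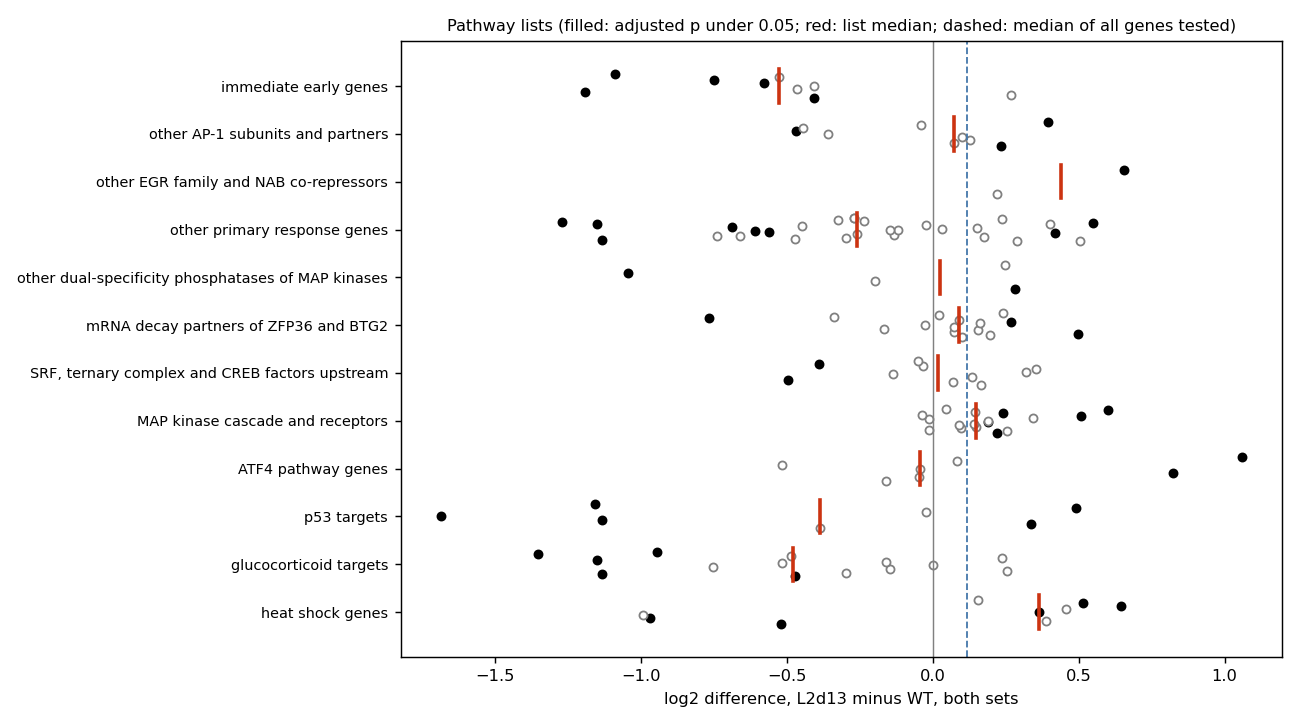
Log2 difference, L2d13 minus WT over both sets, of each tested gene of the members and of 11 other lists; filled points have an adjusted p under 0.05, red bars are list medians and the dashed line is the median of all genes. The members' median is -0.53, that of glucocorticoid targets -0.48 and that of the MAP kinase cascade 0.15, with the median of all genes at 0.12.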

How the data were processed

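Expression was read from 1 table of FPKM values with 2 decimals, made by the authors from 24 liver RNA libraries and used as deposited. Extraction used TRIzol and sequencing the BGISEQ-500 platform, per the labels' protocols. HISAT, Bowtie2 and RSEM and the build GRCm38.p5 are named per the submitters' processing notes, and their versions, the annotation and the use of strand are not given in the sources used here. FPKM keeps no read totals, so the depth of each library is unknown. The FPKM that 1 fragment is worth was compared between libraries from 231 low genes, of whose 2988 values above 0 a share of 87.3% fell no more than 0.2 from whole steps; steps were taken from these same values. Of the gene identifiers 18040 matched a RefSeq symbol and 131 did not, columns that belong to no sample numbered 0, and no libraries were identical.

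The filter asked for 6 or more libraries with an FPKM of 1 or more and left 10532 genes. Fits used log2(FPKM + 1) and limma 3.58.1 (R 4.3.3), with a variance trend, over all 24 libraries: genotype and set as additive terms, or 1 mean per group for the comparisons within sets and genotypes and for the difference of effects. P-values were two-sided and adjusted over all tested genes by the method of Benjamini and Hochberg, with a threshold of 0.05. A fold change on this scale understates the change of low genes. Correlations between members used 100000 permutations within groups. The procedure was tested on simulated data. Python 3.11.15 with pandas 2.3.3, numpy 2.4.6, scipy 1.17.1 and matplotlib 3.10.9 made the tables and plots.

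All 10 members are given. Of a pathway list up to 4 called genes with the smallest p are named, of a marker list the 2 most abundant genes, and the 8 genes most like the members; called markers and genes outside these limits were named after their values were seen. The members and lists were chosen with earlier results of these data known. Positions are from GENCODE M21 and promoter sequences from RefSeq (GRCm38.p6). Other pseudocounts (0.1 and 0.5), filters, scalings, variance models, the replicate number as a block and the omission of libraries were tried.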

Additional observations from a re-analysis of the deposited data

Results flagged for a closer look

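Each of the 10 genes was checked in each of the 4 groups of 6 libraries for a single library far from the other 5. The check used the scale of log2(FPKM + 1). On it 2 of these 40 groups had such a library, where chance gives about 1 in 20. Both were of Atf3 in L2d13 libraries. In L2d13 set 2 the highest library, replicate 3, had 1.09 FPKM and the next 0.44. In L2d13 set 4 the highest, replicate 8, had 1.01 FPKM and the next 0.49. In both cases the high library lay within the range of the WT libraries of its set. Junb in WT set 4 was not flagged on the log2 scale, although replicate 11 had 182.1 FPKM and the next library 43.63.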

How the results depend on the processing

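Members called by genotype over both sets numbered 5 in every planned setting that kept Atf3 in the test, apart from single libraries left out (4 to 5), and 3 without WT set 4 replicates 9 and 11, a setting chosen after the data were seen. Atf3 could not be tested with an FPKM of at least 1 in all 24 libraries, where 4 members were called. Within set 2 the count of 0 became 1 with median-of-ratios scaling and 1 with quantile normalization (Dusp1, lower), 1 without the 7 libraries with the most FPKM per fragment (Btg2, higher), and 0 to 2 with 1 library left out (1 without L2d13 set 2 replicate 6, 2 without WT set 2 replicate 3). Within set 4 the count of 5 became 2 without those 7 libraries, 2 without WT set 4 replicates 9 and 11, and 3 to 7 with 1 library left out (3 without WT set 4 replicate 11). The difference between sets gave 0 to 1 members with 1 library left out (Egr1 without WT set 4 replicate 12). Between the WT sets the count of 1 became 0 without the 7 libraries and 0 to 2 with 1 library left out (2 without WT set 4 replicate 8 or 12); Egr1 there lost its call without any 1 of WT set 2 replicates 2 to 6 or WT set 4 replicate 11 (adjusted p from 0.0525 to 0.0745). Between the L2d13 sets it was 0 throughout. Over both sets Egr1 changed sign, to 0.043 without the 7 libraries and 0.027 without the pair. The median correlation between members ran from 0.48 to 0.54 over 4 settings, and from 0.38 to 0.43 when the 2 libraries farthest from the median were left out of each pair. The causes of these changes were not tested.

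With the replicate number as a block (replicate block), 5 members were called, the same as without it. The numbers were not taken to pair the libraries, since 4 of 12 same-numbered pairs had a correlation of deviations over 0.1 (range -0.604 to 0.260). Over all genes, 2730 rose and 512 fell by genotype over both sets, 1215 and 1164 with median-of-ratios scaling, 1310 and 1079 with quantile normalization, 1535 and 557 without the 7 libraries, and 4091 and 1417 with array weights. The counting error of low genes such as Fosb and Fos is unknown, since FPKM keeps no read totals.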
